A study of Rattus norvegicus with 36 samples.

Results

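The genes described here are 8 genes used to read Schwann cells and myelin of the nerve branches inside a muscle, out of 14217 genes measured in rat soleus. They are S100b, Pmp22, Mbp, Prx, Mag, Egr2, Ngfr and Gdnf. Each was taken from a probe set that carries the gene's symbol and no other, and where a gene had several such probe sets (12 probe sets for the 8 genes) the brightest of them on average over the 36 arrays (by mean log2) was used. The question was how these genes behaved in soleus after spinal cord injury (SCI) and with treadmill training (TM).

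The study profiled the left soleus, a slow postural muscle of the calf, of adult female Sprague Dawley rats aged 16 weeks at the start, with 1 array per rat and 6 rats in each of 6 groups. Uninjured age-matched rats were the controls (CTR), and 3 groups were taken 3, 8 or 14 days after a moderate contusion of the thoracic cord without training (SCI3d, SCI8d and SCI14d). Injured rats of the last 2 groups started stepping on a treadmill on day 7 and were taken on day 8 after 3 sessions (SCI8d + TM) or on day 14 after 5 days of repeated sessions (SCI14d + TM), in both cases 8 hours after the last session. The methods describe a dough diet for the experimental rats, and single housing and pain relief after surgery, so that injury and this care cannot be told apart. The cord was bruised well above the segments that hold the motor neurons of the soleus, so the nerve to the muscle was not itself cut, and the arrays hold RNA of whole muscle, in which nerve is a minor part. In such bulk samples, fewer cells of a type and less RNA per cell cannot be told apart.

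Schwann cells wrap the axons of peripheral nerves, and those around large axons build compact myelin. The transcription factors Sox10 and Egr2 drive the myelin genes, and the sheath holds structural proteins such as Pmp22 and Mbp, while Prx and Mag sit on its outer and inner membranes. When axons are lost, Schwann cells are known to lower myelin genes and to raise genes such as Ngfr and Gdnf. Several of these genes are not restricted to Schwann cells: S100b is also made by rat adipocytes, Pmp22 by fibroblasts, Egr2 is induced by stimulation in many cell types, and Gdnf is made by muscle fibers.

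Values below are the deposited array signals, in arbitrary units after scaling of each array. A signal serves to compare rats for the same probe set and not to compare genes. A log2 fold change is the difference of mean log2 signals of 2 groups, from a limma model of all 6 groups, and a gene was called at an adjusted p under 0.05, with Benjamini-Hochberg adjustment across the 31042 probe sets tested. Of the 8 members, 3 (Mag, Ngfr and Gdnf) had a mean log2 signal below the 40th percentile of all probe sets. The SE of a difference between 2 groups was 0.81 for Ngfr and 0.61 for Gdnf. It was 0.31 for Mag, beside 0.34 for the brighter S100b and 0.69 for the brighter Egr2. As a check of the labelled tissue, Myh7, the myosin heavy chain of slow fibers, had signals of at least 37777 in all 36 rats. None of the 8 genes of the slow fiber list, which also holds the general muscle genes Ckm and Acta1, was called in the 5 main comparisons. In SCI14d all 8 were lower than in controls, with a median log2 fold change of -0.31, beside 0.08 over all probe sets. The array medians ran from 166.4 to 234.3, and the ratio of the 3′ to the 5′ GAPDH control, a sign of RNA quality, was at most 1.61, in CTR replicate 3. SCI8d replicate 1 stood apart from its group in several genes named below, and without it 10.9% of all probe sets were called between SCI8d and CTR, against 6.29% with it.

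S100b fell after injury and was the only one of the 8 members called in any pair of groups. In controls its signal ran from 848.9 through a median of 1299 to 4448, with a mean of 1896 ± 1403 (SD, n = 6). On day 3 it ran from 262.0 through 413.1 to 462.5, with a mean of 391.8 ± 70.3 (SD, n = 6). All 6 SCI3d rats lay below all 6 controls, and the control group had the wider spread. S100b was 4.05-fold lower on day 3 (log2 fold change -2.02, SE 0.34, adjusted p = 6.44e-05), and the two-sided exact permutation test of the same difference gave p = 0.00216, the smallest that 924 arrangements can give. Adjusted over the 40 such permutation tests made (8 genes in 5 comparisons), that p was 0.0866. No other of these tests reached 0.00216. With the other p values as they were, the smallest possible p adjusts to 0.0866, however large the difference. The adjusted permutation test could therefore not have called S100b at 0.05, and nothing is concluded from it.

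S100b was 1 of 8 members called on day 3 (8 genes, 1 lower and 0 higher), beside 16.5% of all probe sets called in either direction and 9.24% called lower. Groups that do not overlap, lower than controls, were found for 4.31% of all probe sets on day 3. A share of 1 in 8 is close to the background, and nothing particular to the 8 genes follows from the count.

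In the SCI8d rats S100b ran from 344.9 through a median of 683.5 to 1043. Of the 6 SCI8d rats, 4 were below every control, and the other 2 were within the control range. S100b was 2.30-fold lower than in controls on day 8 (log2 fold change -1.20, SE 0.34, adjusted p = 0.0297, exact permutation p = 0.0152), again 1 of 8 members, beside 6.29% of all probe sets called and 3.28% called lower. This call was lost without CTR replicate 3, the control with the highest S100b (log2 fold change -0.90), and without CTR replicate 5 or SCI8d replicate 2, 5 or 6, each taken alone, with adjusted p between 0.0553 and 0.1003 in these 5 fits.

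By day 14 S100b ran from 413.6 through 810.9 to 1499 in SCI14d, and from 759.4 through 788.6 to 2080 in SCI14d + TM. Both groups overlapped the controls. The differences from controls were -0.99 (adjusted p = 0.101) for SCI14d and -0.57 (adjusted p = 0.525) for SCI14d + TM, neither of them called. Among all probe sets, 3.19% were called for SCI14d and 0.358% for SCI14d + TM. Against day 3, S100b was higher in SCI14d (log2 fold change 1.03, adjusted p = 0.0425, where 12.9% of all probe sets were called and 7.99% were higher) and in SCI14d + TM (1.45, adjusted p = 0.00282, where 16.3% were called and 9.71% were higher).

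In SCI8d + TM, S100b ran from 444.4 through 752.1 to 1027 and was lower than in controls (log2 fold change -1.14, adjusted p = 0.0256, where 12.2% of all probe sets were called and 5.71% were lower). The comparisons of SCI8d and of SCI8d + TM with SCI3d, where 6.79% and 12.7% of all probe sets were called, did not call S100b (0.82 and 0.88). Among the other pairs of injured groups without a control, at most 0.577% of all probe sets were called, with 0.19% between SCI14d + TM and SCI8d, 0.00644% between SCI8d + TM and SCI14d and 0% between SCI14d and SCI8d. In all, 5 of the 15 pairs of groups were called for S100b, and the moderated F test over the 6 groups gave an adjusted p of 0.0011, where 21.9% of all probe sets passed. Ordered by mean log2 signal, the groups ran SCI3d (8.59), SCI8d (9.41), SCI8d + TM (9.47), SCI14d (9.62), SCI14d + TM (10.04) and CTR (10.61), and no neighbours in that order differed at an adjusted p under 0.05.

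**Figure D1:**
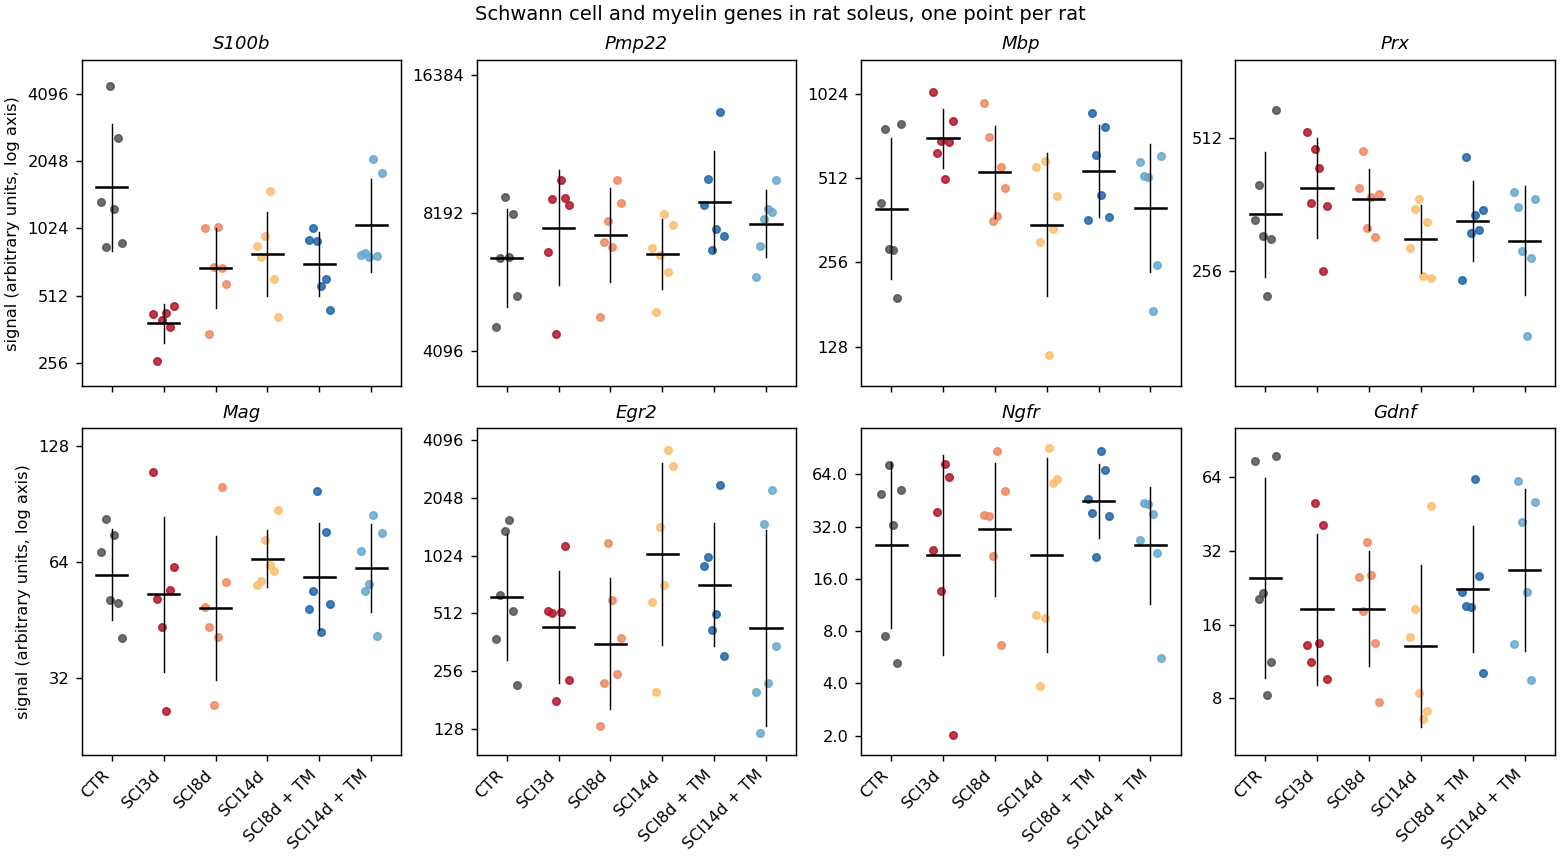
Signal of each of the 8 genes (vertical log axis, arbitrary units) in each rat, by group, with the horizontal bar at the mean of log2 signals and the vertical bar at 1 SD either side of it (6 rats per group). The 6 SCI3d rats lie between 262.0 and 462.5 for S100b, below every control, while the groups of the other 7 genes overlap.

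Some adipocyte markers were lower in the same comparisons as S100b. Of 9 adipocyte markers measured, 5 were lower on day 3 and 1 was higher, and the median of the 9 log2 fold changes was -1.51, beside a median of -0.04 over all probe sets, of which 16.5% were called. Adipoq, the adipocyte hormone adiponectin, was lower by a log2 fold change of -2.80 (adjusted p = 0.00222), and Plin1, which coats lipid droplets, by -2.15 (adjusted p = 0.00671). Cidec (-2.57), Cfd (-1.51) and Pck1 (-1.63) were the other 3 that fell, and Cidea (0.90) was the 1 that rose. On day 8 Fabp4 (-1.07) and Lipe (-1.26) were called lower, and on day 14 Fabp4 alone (-0.82), beside 6.29% and 3.19% of all probe sets called.

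As a mean of log2 signals relative to the control mean, which weights the 9 adipocyte markers equally, the list ran from -0.64 to 0.71 in controls, from -1.79 to -0.70 in SCI3d, from -1.40 to -0.59 in SCI8d and from -1.69 to -0.37 in SCI14d. It ran from -2.40 to -0.85 in SCI8d + TM and from -1.46 to 0.51 in SCI14d + TM. On this scale SCI3d and SCI8d + TM lay wholly below the controls and the other 3 injured groups overlapped them. The summed signal, which the brightest probe sets dominate (Fabp4, Cfd and, on day 3, Cidea, which rose), ran from 18361 to 48664 in controls, from 9778 to 29087 in SCI3d, from 12531 to 16538 in SCI8d and from 11104 to 33197 in SCI14d. It ran from 11114 to 18245 in SCI8d + TM and from 17705 to 40460 in SCI14d + TM, and none of the 9 markers was at 0. On that scale the ranges of SCI8d and SCI8d + TM lay wholly below that of the controls, and SCI3d overlapped it. The part of adipocytes in the S100b result was not tested.

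Within groups, rats with a higher S100b signal tended to have higher adipocyte marker signals. After removal of group means, the correlation of S100b with the mean of the 9 adipocyte markers over 36 rats was r = 0.75 (rho = 0.77), with permutation p = 1e-05, the smallest that 100000 resamples within groups can give, and an adjusted p of 0.00016 over 32 relations of this kind. It was positive in 5 of 6 groups, with r from -0.05 to 0.97 within groups, and r was 0.72 without CTR replicates 3 and 5, the rats farthest from the median of S100b. The correlation of S100b with the mean of 11 other myelin genes was r = 0.03. All values of 1 rat come from 1 array, so that they share its scaling and its piece of muscle.

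None of the myelin genes among the 8 members was called between any pair of groups. For Mbp, a protein that binds the membranes of compact myelin together, the signal ran from 191.4 through a median of 351.3 to 797.5 in controls, from 507.4 through 691.0 to 1040 on day 3, from 358.6 through 517.7 to 950.3 on day 8 and from 119.8 through 389.7 to 590.3 on day 14. All 6 SCI3d rats were above the control median, and the groups overlapped. The log2 fold change on day 3 was 0.84 (SE 0.37, unadjusted p = 0.028, adjusted p = 0.122), so Mbp was not called, and its 95% interval ran from 0.10 to 1.58. The differences of 0.44 on day 8 and -0.19 on day 14 were not called either, with adjusted p of 0.545 and 0.846.

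The 3 Mbp probe sets did not give the same reading. On day 3 a second probe set of Mbp gave 0.55 and the remaining one gave -0.55, with adjusted p of 0.345 and 0.398. Within groups the first and second varied together (r = 0.81 over 36 rats), and the remaining one did not follow the first (r = -0.03). The smallest adjusted p of the used Mbp probe set over the 15 pairs of groups was 0.0572.

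Prx, or periaxin, the scaffold protein of the outer Schwann cell membrane, ran from 225.1 through 320.3 to 591.2 in controls and from 255.8 through 401.7 to 529.5 on day 3. Its groups overlapped almost wholly. In SCI3d, SCI8d and SCI14d the log2 fold changes of Prx from controls were 0.20, 0.11 and -0.18, with adjusted p of 0.593, 0.81 and 0.703. The day 3 interval of -0.22 to 0.61 leaves room for a small rise.

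Pmp22, a tetraspan protein of compact myelin, ran from 4625 through 6562 to 8892 in controls and from 4461 through 8665 to 9698 on day 3. The day 3 rats reached slightly above the control range, and 1 of them was below it. Its differences from controls were 0.22, 0.17 and 0.03 on days 3, 8 and 14, with adjusted p of at least 0.497, and the highest upper bound of their 95% intervals was 0.60, on day 3. A second Pmp22 probe set varied with the first (r = 0.85) and gave 0.18, 0.26 and 0.04.

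Mag, the adhesion molecule of the innermost myelin membrane, ran from 40.8 through 59.4 to 82.6 in controls, from 26.4 through 52.7 to 109.0 on day 3 and from 55.7 through 61.8 to 87.4 on day 14. No group stood apart. The differences from controls were between -0.28 and 0.14, with adjusted p of at least 0.661.

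**Figure D2:**
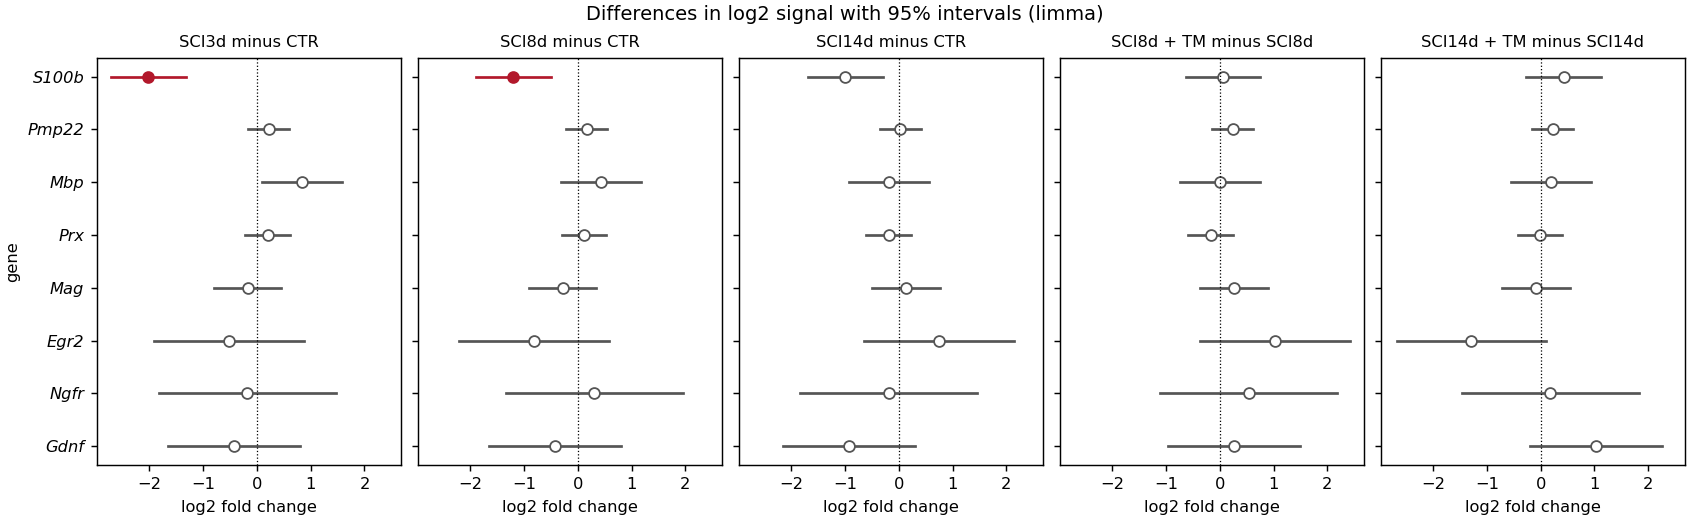
Log2 fold change (horizontal axis) of each gene in the 5 main comparisons, with its 95% interval from limma. The filled red points are S100b on day 3 (-2.02) and day 8 (-1.20), the only 2 called, and the open points are the differences that were not called.

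Egr2, the transcription factor that switches on myelin genes, had the widest swings between rats among the 5 brighter members. Its signal ran from 218.1 through 582.5 to 1576 in controls, from 179.7 through 515.5 to 1152 on day 3, from 132.3 through 316.0 to 1190 on day 8 and from 199.6 through 1085 to 3616 on day 14. The highest rats of each group were several times the lowest, and the groups overlapped. The log2 fold changes from controls were -0.53, -0.82 and 0.74 on days 3, 8 and 14, each with an SE of 0.69 and an adjusted p of 0.686, 0.547 and 0.629.

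The Egr2 promoter is shown because Egr2 followed the immediate early genes, as given further on, and because it was the 1 member of the 7 with a promoter in the RefSeq table (build GRCr8) that held a CArG box, the element to which serum response factor binds. The annotated Egr2 gene spans chr20:21050149-21055201, so the start used for this promoter and the bases before it lie within that span. The bases before that start, chr20:21054442-21054691 on the minus strand, read 5′ to 3′ as follows, with the CArG box in capitals.
Egr2: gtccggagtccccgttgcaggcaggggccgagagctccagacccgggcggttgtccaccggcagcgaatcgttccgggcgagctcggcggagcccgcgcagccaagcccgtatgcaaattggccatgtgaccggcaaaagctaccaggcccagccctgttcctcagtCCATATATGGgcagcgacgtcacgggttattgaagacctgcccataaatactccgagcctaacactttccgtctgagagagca
The box began 83 bases before the start. The CArG consensus reads the same on both strands, and 548 of 33469 rat promoters of 300 bases (1.64%) held at least 1, so a match is a description and no sign of binding. Of 5 immediate early genes with a promoter in the table, 1 (Egr1) held the box. Egr1 held 2 of them, CCATATTAGG at 105 bases and CCATATATGG at 83 bases before its start, the latter with the letters and position of the Egr2 box. This search was chosen after the correlation with immediate early genes had been seen.

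A SOX type motif (ACAAAG, both strands) was in the promoter of Mag and in 1 of the 2 listed promoters of Mbp, and 18.8% of all promoters held it. An EGR type motif (GTGGGCG, both strands) was in none of the promoters of the 7 members, and 7.12% of all promoters held it.

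Ngfr, the low-affinity neurotrophin receptor p75, was dim. Its signal ran from 5.27 through 41.1 to 72.2 in controls, from 2.02 through 31.2 to 73.0 on day 3, from 6.63 through 37.0 to 87.0 on day 8 and from 3.84 through 33.3 to 90.4 on day 14. The groups covered the same range. The differences from controls were -0.18, 0.31 and -0.18, each with an SE of 0.81, and the 95% interval on day 3 (-1.83 to 1.46) holds rises and falls of more than 2-fold.

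Gdnf, the trophic factor for motor neurons, was the dimmest member. It ran from 8.28 through 20.9 to 77.7 in controls, from 9.61 through 13.3 to 50.4 on day 3, from 7.71 through 21.5 to 34.6 on day 8 and from 6.61 through 11.3 to 48.9 on day 14. Again the groups overlapped. The differences from controls were -0.43, -0.42 and -0.92 on days 3, 8 and 14, with an SE of 0.61 and adjusted p of at least 0.453.

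Across these 7 genes other than S100b, 0 of 105 tests of a pair of groups were called by limma, and 6 had an unadjusted p under 0.05. The adjusted p of the F test ran from 0.192 (Mbp) to 0.862 (Ngfr). The median log2 fold change of the 8 members was -0.18 on day 3, -0.09 on day 8 and -0.18 on day 14, beside -0.04, 0.04 and 0.08 over all probe sets. A miss of the threshold does not show that a gene was unchanged, and the intervals above give the changes that the data allow.

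Treadmill training did not change any member past the threshold. On day 8, 0 of 8 members were called by limma, beside 0% of all probe sets, and 0 of 8 had an unadjusted p under 0.05, beside 4.33% of all probe sets. On day 14 the counts were also 0 and 0 of 8, beside 0.00322% and 5.96% of all probe sets.

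Among the members, the largest training differences were those of Egr2, Gdnf and Ngfr. Egr2 ran from 305.6 through 708.5 to 2396 in SCI8d + TM and from 122.4 through 283.4 to 2236 in SCI14d + TM. It differed from the untrained group by 1.03 on day 8 (95% interval -0.37 to 2.42) and by -1.29 on day 14 (-2.68 to 0.11), and neither was called. The difference between these 2 training effects was -2.31 (SE 0.97, unadjusted p = 0.0227, adjusted p = 0.918), where 0% of all probe sets were called. A second, dimmer Egr2 probe set varied with the first (r = 0.71 within groups). In limma it gave 0.56 for training on day 8 and -1.42 on day 14 (unadjusted p = 0.0365, adjusted p = 0.815). Gdnf differed by 0.27 on day 8 and 1.03 on day 14, and Ngfr by 0.54 and 0.18.

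For S100b the training differences were 0.06 on day 8 (95% interval -0.64 to 0.76) and 0.43 on day 14 (-0.27 to 1.12). Mbp differed by 0.01 and 0.20, Pmp22 by 0.24 and 0.22, Prx by -0.16 and -0.01, and Mag by 0.27 and -0.08. With SEs of 0.19 to 0.37 for these 5 genes, the narrowest intervals were those of Pmp22 (-0.14 to 0.62 on day 8) and Prx (-0.58 to 0.25 on day 8).

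The 8 genes did not vary together between rats of the same group. Of the 28 pairs of members, 11 had a positive correlation after removal of group means, r ran from -0.38 to 0.62, and 2 pairs passed an adjusted p under 0.05. Mbp and Prx, both proteins of the myelin sheath, were the closest pair (r = 0.62, rho = 0.63, permutation p = 0.00016, adjusted p = 0.00448, 36 rats). Their correlation was positive in all 6 groups (r from 0.26 to 0.92), and r was 0.56 without SCI14d replicate 4 and SCI14d + TM replicate 4, the rats farthest from the median of Mbp. The second pair was Pmp22 and Egr2 (r = 0.53, rho = 0.50, permutation p = 0.00089, adjusted p = 0.0125), positive in all 6 groups and at r = 0.46 without the rats farthest from the median of Pmp22, SCI8d + TM replicate 5 and SCI3d replicate 3.

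Of 32 relations between a member and the mean of a gene list, 4 passed an adjusted p under 0.05. Only the relations with the other myelin and the adipocyte lists were planned. Those with the immediate early and fibroblast lists were added to the plan, so their p values serve as description. Mbp followed the 11 other myelin genes (r = 0.65, rho = 0.62, permutation p = 9e-05, adjusted p = 0.00072), with r positive in all 6 groups and 0.58 without its 2 farthest rats. Egr2 followed the 9 immediate early genes, which cells switch on within minutes of a stimulus (r = 0.86, rho = 0.82, permutation p = 1e-05, adjusted p = 0.00016), with r of 0.67 to 0.94 within groups and 0.85 without its 2 farthest rats, SCI14d replicates 5 and 6.

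Pmp22 followed the 10 fibroblast markers (r = 0.68, rho = 0.58, permutation p = 2e-05, adjusted p = 0.000213), with r of 0.53 to 0.86 within groups and 0.67 without its 2 farthest rats. The relation of S100b with the adipocyte markers, given above, was the remaining one. Prx and the other myelin genes had r = 0.32 (adjusted p = 0.262), and Mag and the other myelin genes r = 0.29 (adjusted p = 0.291), so neither passed. Ngfr and Gdnf passed with no list.

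**Figure D3:**
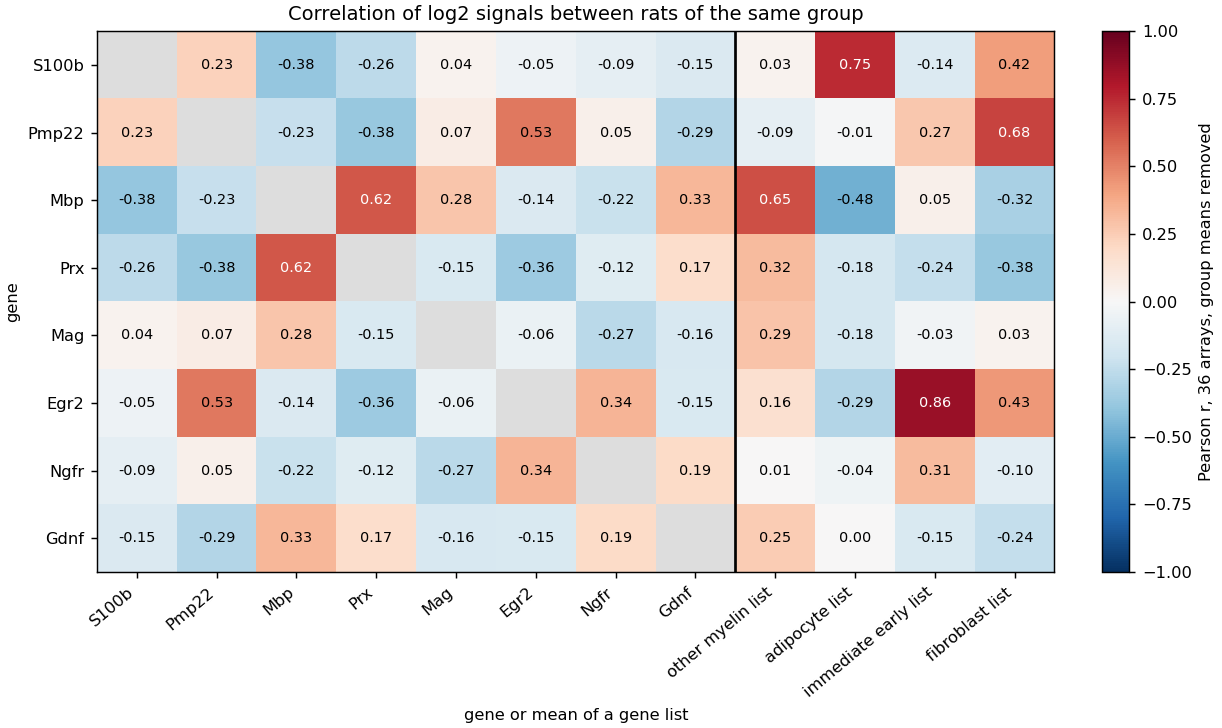
Pearson r over 36 rats of log2 signals after removal of group means, between the 8 genes (left of the black line) and between each gene and the mean of 4 gene lists (right of it), with colour and printed number giving r and grey marking a gene against itself. The 8 genes show no common block, and the highest values are Egr2 with the immediate early list (0.86), S100b with the adipocyte list (0.75), Pmp22 with the fibroblast list (0.68) and Mbp with the other myelin list (0.65).

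Likeness to single genes was also measured. Among 10374 or 10375 genes above the 40th percentile, those most like S100b by group-centred r over 36 rats were Rbp4 (0.80), the retinol carrier, Adipoq (0.79) and Prkar2b (0.78), and 4 of its 10 closest were on the adipocyte list. Those most like Egr2 were Egr1 (0.92), Ier2 (0.87) and Ptgs2 (0.84), all induced by stimulation, and 3 of its 10 closest were on the immediate early list. Those most like Pmp22 were Axl (0.79), a receptor kinase, Oaf (0.78) and Ywhaq (0.78), and 0 of its 10 closest were on the fibroblast list. These r values are descriptions, since each is the highest of many.

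Mbp was most like Sfrp5 (0.66), C10h17orf75 (0.64) and Prx (0.62), and 0 of its 10 closest were on the list of other myelin genes. Prx was most like Mbp (0.62), Tomm70 (0.61) and Vps51 (0.56). For the dim members the closest genes were Ptger4 (0.61), Rbm15b (0.59) and Cblb (0.55) for Ngfr, Shmt2 (0.63), Zfp780b (0.58) and L3hypdh (0.56) for Mag, and Mmp24 (0.58), Raly (0.58) and Jmjd8 (0.54) for Gdnf. No gene of the Schwann cell or myelin lists was among the 10 closest of Ngfr or Mag.

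**Figure D4:**
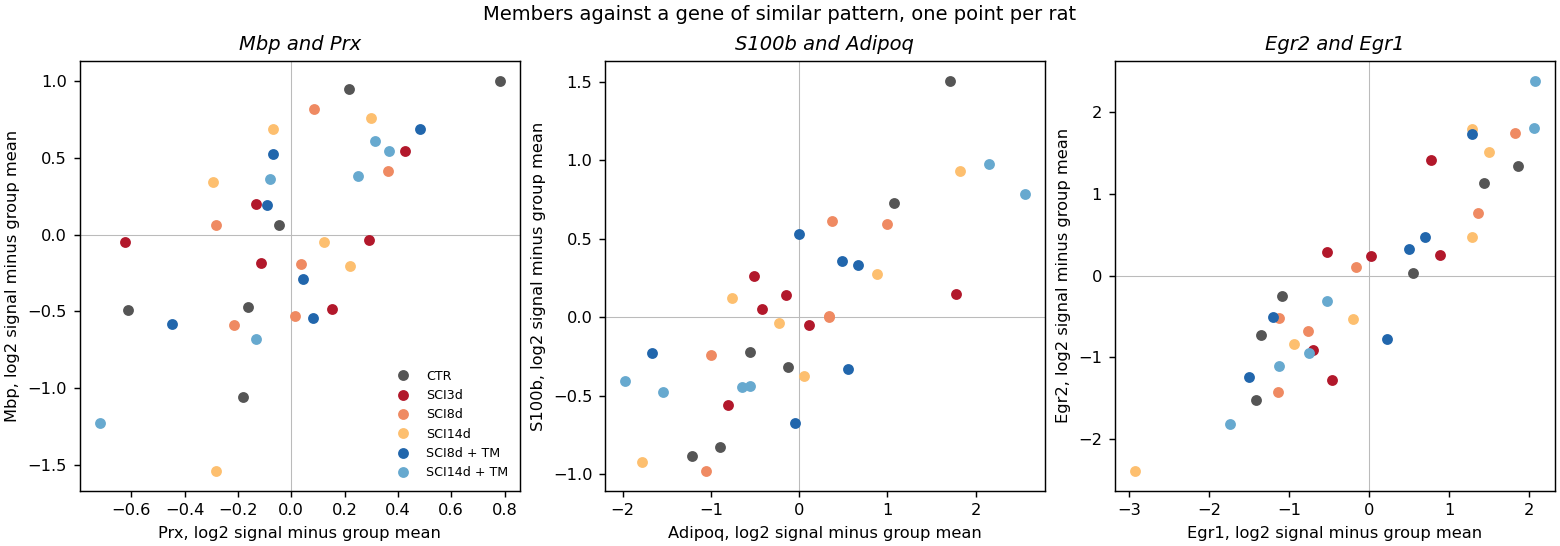
Log2 signal minus its group mean of Mbp against Prx, S100b against Adipoq and Egr2 against Egr1, with 1 point per rat coloured by group (36 rats). The points rise together in each panel, with r of 0.62, 0.79 and 0.92.

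Of 11 other myelin genes measured, 0 were called by limma in any of the 5 main comparisons, and the smallest adjusted p among those was 0.127, for Lgi4 on day 8 (0.44). Lgi4, a secreted Schwann cell protein needed for myelination, was called in SCI8d + TM against controls (0.58, adjusted p = 0.0267). Cnp, an enzyme of myelin cytoplasm, stood at -0.50 on day 3 (adjusted p = 0.151) and was not called.

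Of 16 other genes of the Schwann lineage and of nerve repair, 3 were called on day 3, 1 on day 8 and 0 on day 14, beside 16.5%, 6.29% and 3.19% of all probe sets, so the shares on days 3 and 8 were near the background. Nab1 (0.68) and Nab2 (0.92), partners that bind Egr proteins and restrain or assist them, rose on day 3, and Tead1 (-0.66) fell. Ncam1, an adhesion molecule of repair Schwann cells that muscle fibers also make, rose by 1.74 on day 8 (adjusted p = 0.0261), and its signal ran from 1205 through 1702 to 4106 in controls and from 1082 through 9508 to 12625 in SCI8d. The lowest SCI8d value was that of replicate 1, against 5618 or more in the other 5 rats, and without this rat Ncam1 stood at 2.26 (adjusted p = 0.000611). The medians of these 16 log2 fold changes were 0.24, 0.31 and 0.23 on days 3, 8 and 14. Gap43, the growth protein of axons and repair Schwann cells, did not overlap controls on day 3 (118.0 to 300.4 against 345.6 to 533.3) but was not called (-0.98, adjusted p = 0.101).

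Of 12 axon and neuron genes, 3 fell and 0 rose on day 3, beside 9.24% of all probe sets called lower, the other 9 were not called (4 of the 12 differences were positive), and none was called on day 8 or 14 or for training. Nefm, the medium neurofilament of axons, ran from 72.4 through 242.3 to 702.9 in controls and from 6.05 through 44.1 to 124.8 on day 3. The ranges overlapped at their ends. Nefm was lower by a log2 fold change of -2.55 (adjusted p = 0.00144), Nefl by -1.43 (adjusted p = 0.0338) and Prph by -0.92 (adjusted p = 0.00486).

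The later values of these axon genes differed among themselves. Nefm stood at -0.98 on day 8 and 0.15 on day 14, Prph at -0.65 and -0.21, and Nefl at -1.35 and -1.22, none of them called. The median of the 12 was -0.71 on day 3, -0.01 on day 8 and 0.18 on day 14.

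Of 14 neurotrophin and GDNF family genes, 3 fell and 1 rose on day 3, and 2 fell on day 8, beside 16.5% and 6.29% of all probe sets called. Ret, the signaling receptor of Gdnf, ran from 160.2 through 264.6 to 354.3 in controls, from 65.6 through 111.2 to 126.6 on day 3 and from 11.8 through 105.8 to 174.1 on day 8. All 6 SCI3d rats lay below the controls, and on day 8 the ranges overlapped narrowly. Ret was lower by a log2 fold change of -1.33 in SCI3d (adjusted p = 0.0178) and of -1.75 in SCI8d (adjusted p = 0.00711), while on day 14 the value of -0.90 was not called.

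Bdnf, a ligand of Ngfr and of Ntrk2, fell by 1.32 on day 3 (adjusted p = 0.00684) and by 1.19 on day 8 (adjusted p = 0.0342) on the log2 scale. Ntrk2, its high-affinity receptor, fell by 0.81 on day 3 (adjusted p = 0.0432), and Ntrk3, the receptor of neurotrophin 3, rose by 0.998 (adjusted p = 0.0498). Ntrk3 was dim, with mean log2 signals of 5.06 in controls and 6.06 in SCI3d, below the 40th percentile of 6.73. The other 10 genes of this list, among them Gfra1, the binding receptor of Gdnf (-0.63, adjusted p = 0.102), were not called on day 3, and whether the changes of the called genes differ from those of Ngfr and Gdnf was not tested.

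Of 6 perineurium and endoneurium genes, among them the member Ngfr, 1 rose and 1 fell on day 3 and 1 rose on day 8. Of all probe sets, 16.5% and 6.29% were called on these days. Slc2a1, the glucose transporter of the nerve barrier and of other tissues, rose by 0.83 in SCI3d (adjusted p = 0.0248) and by 0.95 in SCI8d (adjusted p = 0.026). Wif1, a secreted Wnt inhibitor, was lower by a log2 fold change of -1.501 on day 3 (adjusted p = 0.000268). None of the genes of these 4 nerve lists besides the members (the Schwann lineage, neurotrophin, axon and perineurium lists) was called for training on day 8 or day 14.

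**Figure D5:**
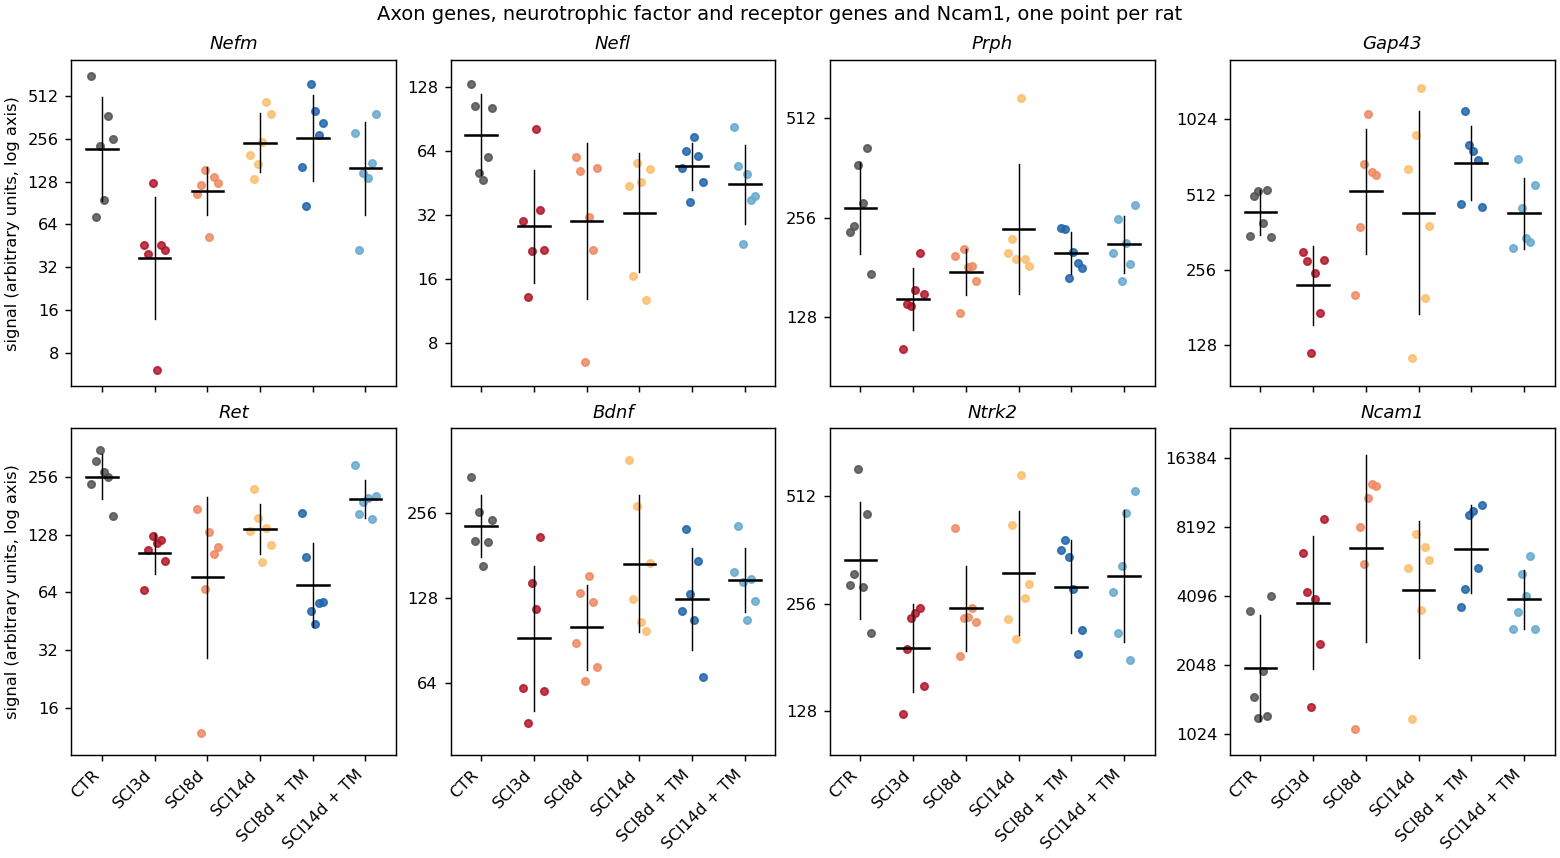
Signal (vertical log axis, arbitrary units) of 8 genes of axons, of neurotrophic signaling and of repair Schwann cells in each rat, by group, with the horizontal bar at the mean of log2 signals and the vertical bar at 1 SD either side (6 rats per group). Nefm, Nefl, Prph, Ret, Bdnf and Ntrk2 were called lower on day 3 and Ncam1 was called higher on day 8, while Gap43 was not called.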

How the data were processed

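Total RNA of 36 left soleus muscles, 6 per group as the labels give them, was measured on Affymetrix rat arrays. The authors generated the deposited intensity values with MAS5, one linear signal per probe set and array. Their filter on detection calls and their own tests were not applied here. Of 31099 deposited probe sets, 57 Affymetrix controls were dropped, and 20826 of the other 31042 carry 1 gene symbol. Signals were taken to log2 with no offset and fitted in limma 3.58.1 (R 4.3.3) with 6 groups and variances moderated with an intensity trend, with 30 residual and 5.45 prior degrees of freedom. The number of arrays limits the precision. The 6 arrays of a group come from 6 rats. Correlations used 100000 permutations within groups, two-sided, in Python 3.11.15 (numpy 2.4.6). Nonmember genes were named where called in a main comparison, or with up to 4 of smallest p per list, and the 3 genes most like each member.

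The 8 genes and the lists were chosen with earlier results of these data known. The fit was tested on simulated data. Alternatives changed the normalization, the filter, the variance model, the test, the probe set, the RNA quality term and the arrays used. Promoters came from RefSeq (GRCr8).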

Additional observations from a re-analysis of the deposited data

Results flagged for a closer look

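In the SCI14d + TM group, Ngfr had 1 rat far below the others. Replicate 6 had a signal of 5.64. On the log2 scale its gap to the nearest of the other 5 rats was 0.676 of the whole range of the group. That is above the 95% critical value of Dixon's test for 6 samples. The test was made on log2 signals only, a scale that stretches the low values of a dim probe set such as this one. The test was made in 48 groups, 8 genes in 6 groups each, and chance alone marks about 1 in 20 of them.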

How the results depend on the processing

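The fall of S100b on day 3 was called in 16 of 16 alternatives (log2 fold change -2.02 to -1.72, adjusted p 4.83e-05 to 0.0110) and in 12 of 12 fits that left out 1 array (-2.20 to -1.72). The methods' t-test unadjusted is among the 16, and there the call rests on an unadjusted p. On day 8 the number of members called went from 1 to 0 with the GAPDH ratio as a covariate, with the methods' t-test after adjustment, with only the 2 groups, with scaling to Gapdh and without the arrays of GAPDH ratio above 1.3 (an alternative chosen after seeing the data), and it was 0 to 1 when 1 array was left out (S100b -1.38 to -0.90, adjusted p 0.0142 to 0.1003). On day 14 it went from 0 to 1 with median centring (S100b -1.12, adjusted p = 0.0471), and on day 3 from 1 to 2 with the methods' t-test unadjusted. The counts of members called for training stayed at 0 under every alternative run, the methods' t-test included. The causes were not tested. Without SCI8d replicate 1, an alternative chosen after seeing the data for the genes of the lists, 18 of 118 list genes were called on day 8, against 11 with it, and 0 of the 11 were lost. No array had a GAPDH ratio above 3, so that alternative left out none. Scaling to Gapdh moved the median of all probe sets to 0.32 for SCI14d against CTR and to 0.12 for training on day 8.

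Of 1125 values recomputed, 72 turned their direction, 43 of them on leaving out 1 array, and 0 of the 72 were called. The third Mbp probe set gave -0.55, -0.14 and 0.16 on days 3, 8 and 14 and -0.12 and -0.27 for training on days 8 and 14, and the second gave 0.039 on day 14 and -0.15 for training on day 14. The mean of the Mbp probe sets gave 0.0042 on day 14, and -0.020 and -0.072 for training on days 8 and 14. Array weights gave -0.021 for Mbp (training, day 14) and 0.023 for Ngfr (day 14). Median centring gave -0.076 for Mbp and -0.024 for S100b (training, day 8), 0.037 for Prx (training, day 14) and -0.10 for Pmp22 (day 14). Quantile normalization gave -0.017 for Mag (day 14), -0.016 for Mbp (training, day 8) and 0.028 for Prx (training, day 14). Scaling to Gapdh gave 0.047 for Mbp, 0.0522 for Ngfr and 0.0520 for Prx on day 14. The GAPDH covariate gave 0.0057 and 0.097 for Ngfr on days 14 and 3 and -0.033 for S100b (training, day 8). The offset gave -0.067 for Ngfr (training, day 14). Without the arrays of GAPDH ratio above 1.3, Mbp stood at 0.025 (day 14) and -0.22 (training, day 14) and Ngfr at 0.12 (day 3).

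Leaving out 1 array, the ranges that crossed 0 against controls were -0.38 to 0.029 for Mag, -0.63 to 0.51 for Ngfr (both day 3), -0.14 to 0.75 for Ngfr, -0.0083 to 0.27 for Prx (both day 8), -0.40 to 0.12 for Mbp, -0.63 to 0.32 for Ngfr and -0.072 to 0.12 for Pmp22 (all day 14). For training on day 8 they were -0.028 to 0.50 for Gdnf, -0.13 to 0.17 for Mbp and -0.13 to 0.20 for S100b. For training on day 14 they were -0.18 to 0.032 for Mag, -0.11 to 0.44 for Mbp, -0.32 to 0.61 for Ngfr and -0.086 to 0.13 for Prx.

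The replicate numbers of the labels were not taken to pair the rats, since in none of the 15 pairs of groups did all 6 same-numbered rats correlate above 0.1. It was 1 to 3 of 6 in the 5 main comparisons, and over the 15 pairs 1 to 4 of 6, with 0 to 4 of 6 rats correlating best with their own number, the highest in both between SCI8d and SCI14d + TM. With the replicate number as a block, the members called were 1, 1, 0, 0 and 0, as without it (S100b -2.02, adjusted p = 6.76e-05, and -1.20, adjusted p = 0.0260), and 5226, 2035, 1083, 0 and 1 of all probe sets were called, against 5109, 1952, 989, 0 and 1. Under quantile normalization 2 pairs of members still passed. Mag, Ngfr and Gdnf were dim. For Ngfr and Gdnf (SE 0.81 and 0.61), as for the brighter Egr2 (SE 0.69), only large changes could have been called. For Mag the SE of 0.31 was below that of S100b (0.34).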

Other observations

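Besides the adipocyte list given above, lists of other cell types had few called genes on day 3, in shares near the 16.5% of all probe sets called. Of all probe sets, 6.29% were called for SCI8d and 3.19% for SCI14d against controls. The differences of all 10 fibroblast markers from controls were positive in both of these groups. Of 10 fibroblast markers, Lum (-1.06) and Pi16 (-1.70) fell on day 3, Col3a1 (1.21), Fbn1 (0.93) and Mfap5 (0.88) rose on day 8, and Col3a1 (1.13) and Dpt (0.63) rose on day 14, given as log2 fold changes from controls in limma. SCI8d replicate 1 stood apart in the 3 genes of day 8 (Col3a1 16862 against 43324 or more in the other 5 rats, Fbn1 5988 against 13853 or more, Mfap5 7153 against 14257 or more), and without it they stood at 1.46, 1.18 and 1.11. Pmp22, whose log2 signal varied with the fibroblast list within groups, differed from controls by 0.17 on day 8 and 0.03 on day 14. Of 9 macrophage markers, Cd163 (1.09) rose and Adgre1 (-1.30) fell on day 3, and none was called in SCI8d or SCI14d. Of 7 endothelial markers, Emcn (-0.65) fell on day 3 and none was called in SCI8d or SCI14d. In SCI8d + TM against controls, 12.2% of all probe sets were called. There 5 of the 10 fibroblast and 2 of the 9 macrophage markers were higher, and 2 of the 7 endothelial markers were lower.

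Of the 9 immediate early genes, Nr4a1 fell by 1.78 on day 3 and by 2.02 on day 8 on the log2 scale. The other 8 were not called, beside 16.5% and 6.29% of all probe sets called on these days. For training, 7 of the 9 differences were positive on day 8 and 2 negative (median 0.48), and all 9 were negative on day 14 (median -1.10). The medians over all probe sets were 0.03 and -0.03. The member Egr2, which is not on this list, differed by 1.03 and -1.29. None of these 4 lists had a gene called for training.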
